A study of Homo sapiens with 12 samples.

Results

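The genes of cholesterol and fatty acid synthesis were followed in MDA-MB-231 cells, a human triple-negative breast cancer cell line. The set was a fixed list of 30 gene symbols, each looked up in the gene column of the deposited expression table, which holds 23372 gene symbols. All 30 were found, each on 1 feature of the table, and all 30 passed the filter on low values. They comprise 16 enzymes of the sterol arm, 9 enzymes of the fatty acid arm and 5 regulators or sterol carriers. The cells were WT or carried a CRISPR/Cas9 deletion within the core-regulatory element (CRE) of the ETS1 promoter (ΔCRE cells, labelled KO). The deletion, made with 2 guide RNAs, removed a part of the CRE with NFAT and NF-κB sites, not the whole element. Both genotypes were sampled before stimulation (0 h) and after 6 h and 24 h of PMA, a phorbol ester, with Ionomycin, a calcium ionophore. There were 2 biological replicates for each of the 6 groups and 12 libraries in all. How many clones stand behind the ΔCRE libraries is not given in the sources used here, so the deletion and a clone cannot be told apart. The study calls the replicates biological, but no source describes them as separate cultures. P-values thus measure the spread between these libraries, and how much of it is technical is not known. Expression was deposited as FPKM, fragments per kilobase of transcript scaled to the mapped fragments of the library, a unit that allows levels to be compared between genes.

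Cholesterol is made from acetyl-CoA through mevalonate, isoprenoid units, squalene and lanosterol, whereas fatty acids are built from the same acetyl-CoA by acetyl-CoA carboxylase and fatty acid synthase and are then elongated and desaturated. Both arms are under the control of the SREBP transcription factors, encoded by SREBF1 and SREBF2. SREBPs are held in the endoplasmic reticulum by the escort protein SCAP and its anchor INSIG1 while sterols are plentiful. When sterols fall, SCAP carries them to the Golgi, where they are cleaved, and the released part enters the nucleus. SREBF2 is best known for the sterol genes and SREBF1 for the fatty acid genes.

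One library was set apart before the results. ΔCRE 0 h replicate 1 correlated with its replicate at a Pearson's r of 0.867 across genes, against 0.978 to 0.984 in the other 5 pairs, and 11 markers of gut epithelium summed to 10930 FPKM in it and to at most 0.446 FPKM in each of the other 11 libraries. It was left out of the tests, so ΔCRE at 0 h is replicate 2 alone and is assumed to vary as the other groups do. In the remaining 11 libraries VIM and CD44 were high (sum of 1632 to 2709 FPKM) and ESR1, PGR and CDH1 were at or near 0. EPCAM, listed with these 3 as a low marker, was at 2.02 to 3.38 FPKM. The 3 hepatocyte markers summed to at most 0.427 FPKM and the 3 adipocyte markers to at most 1.88 FPKM. CD68, a lysosomal protein listed as an immune marker, ranged from 20.8 to 91.7 FPKM and was highest at 24 h, with PTPRC and CD3E at or near 0. ETS1, the targeted gene, had 23.99 and 23.7 FPKM in WT and 16.5 FPKM in ΔCRE cells at 0 h, 139 and 145 against 62.8 and 62.2 FPKM at 6 h, and 36.2 and 39.7 against 29.2 and 30.7 FPKM at 24 h. Tests compared log2(FPKM + 1) between groups with limma, with Benjamini-Hochberg adjustment over the 11256 features with a mean of at least 1 FPKM. A gene is called here when its adjusted p was under 0.05. In bulk RNA, fewer cells of a type and less RNA per cell cannot be told apart.

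Promoter sequences are shown for 5 members that the results below turn on, the sterol enzymes HMGCS1 and MVD and 3 regulators. Any part of these sequences in the changes below was not tested. The RefSeq table gave windows from 250 bases before to 50 bases after the annotated start (GRCh38.p14) for 26 of the 30 members, and no window was used for FASN, ACAT2, FDFT1 and SQLE. Each line below holds the 250 bases before the start, read 5′ to 3′ on the gene's strand. HMGCS1 had a further window, which held none of the motifs marked, and the window with the most CCAAT boxes is shown. Capitals mark, on either strand, a CCAAT box (CCAAT, bound by NF-Y), the core of a sterol regulatory element (CACNCCAC) or its longer form (TCACNCCAC). The sequences lie at chr22:41832855-41833104 (SREBF2, plus strand), chr5:43313413-43313662 (HMGCS1, minus strand), chr16:88663092-88663341 (MVD, minus strand), chr7:155297628-155297877 (INSIG1, plus strand) and chr17:17836987-17837236 (SREBF1, minus strand).
SREBF2: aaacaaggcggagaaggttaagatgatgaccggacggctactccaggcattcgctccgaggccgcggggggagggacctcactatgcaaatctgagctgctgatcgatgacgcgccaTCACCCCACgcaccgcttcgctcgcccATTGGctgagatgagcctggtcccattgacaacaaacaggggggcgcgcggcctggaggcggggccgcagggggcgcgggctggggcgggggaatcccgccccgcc
HMGCS1: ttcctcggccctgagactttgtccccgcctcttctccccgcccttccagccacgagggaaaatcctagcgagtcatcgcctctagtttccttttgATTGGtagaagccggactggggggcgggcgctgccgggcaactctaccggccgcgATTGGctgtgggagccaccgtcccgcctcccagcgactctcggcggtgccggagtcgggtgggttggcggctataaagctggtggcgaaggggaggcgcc
MVD: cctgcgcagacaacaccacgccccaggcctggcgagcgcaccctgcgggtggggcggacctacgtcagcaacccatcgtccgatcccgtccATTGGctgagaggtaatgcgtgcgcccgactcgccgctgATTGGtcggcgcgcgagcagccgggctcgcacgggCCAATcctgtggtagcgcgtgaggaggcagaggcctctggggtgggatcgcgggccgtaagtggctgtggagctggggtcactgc
INSIG1: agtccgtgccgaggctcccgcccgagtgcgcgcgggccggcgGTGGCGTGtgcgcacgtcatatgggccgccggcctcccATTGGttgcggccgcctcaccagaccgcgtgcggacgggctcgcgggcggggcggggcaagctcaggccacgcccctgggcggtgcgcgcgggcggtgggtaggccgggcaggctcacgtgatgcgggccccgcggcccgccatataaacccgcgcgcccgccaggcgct
SREBF1: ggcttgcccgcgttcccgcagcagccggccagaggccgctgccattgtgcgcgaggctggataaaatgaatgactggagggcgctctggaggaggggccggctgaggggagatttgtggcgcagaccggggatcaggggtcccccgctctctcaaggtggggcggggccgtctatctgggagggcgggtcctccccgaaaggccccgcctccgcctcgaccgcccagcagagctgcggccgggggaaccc

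SREBF2 was the one member whose window held the longer element TCACNCCAC, which contains the core, at base -133 from the start. That longer element was present in 1.39% of the 27305 genes in the table. The core was found in 5 of 26 members (19.2%), namely SREBF2, INSIG1, IDI1, ACACA and SCD. It was present in 7.05% of all genes and 7.5% of the genes tested. By arm it was found in 1 of 13 sterol enzymes (7.69%), which was near these shares. The fatty acid arm had it in 2 of 8 enzymes (25%) and the regulators in 2 of 5 (40%). A CCAAT box was found in 20 of 26 members (76.9%), in 11 of 13 sterol enzymes (84.6%), in 6 of 8 fatty acid enzymes (75%) and in 3 of 5 regulators (60%), against 39.7% of all genes and 43.7% of the genes tested. MVD held 3 such boxes and the HMGCS1 window shown held 2, while the SREBF1 window held neither motif. These are matches of letters in a fixed window, not measured binding.

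Before stimulation, the members were well expressed in WT cells. In the sterol arm the mean level ran from 7.88 FPKM for SQLE, the squalene epoxidase, to 169 FPKM for FDPS, the farnesyl diphosphate synthase, with a median of 28.3 FPKM over the 16 enzymes. Fatty acid enzymes ran from 15.4 FPKM for ACACA, the acetyl-CoA carboxylase, to 138 FPKM for SCD, the stearoyl-CoA desaturase, with a median of 57.4 FPKM over 9. Among regulators, STARD4, a cytosolic sterol carrier, was lowest with 13.3 FPKM and SREBF1 highest with 39.9 FPKM. At 24 h in WT cells the median level was 49.1 FPKM in the sterol arm and 64.3 FPKM in the fatty acid arm.

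The comparison of 6 h with 0 h in WT cells asked how the arms stood early in the response. No common direction was seen: 7 members rose, 7 fell and 16 were not called. Over all features 44.4% were called, 23.3% higher and 21.1% lower, so the members' shares were near the background. In the sterol arm 5 of 16 rose and 2 fell, with a median log2 fold change of 0.09. In the fatty acid arm 1 of 9 rose and 3 fell, with a median of -0.02, and the median over all features was -0.00. The sums of FPKM were higher at 6 h than at 0 h, and after each library was rescaled to a fixed sum (TPM) the median of all features moved to -0.12, the sterol median to -0.03, and 4 members rose and 11 fell. Among all calls, 52.5% were higher as FPKM and 35.0% as TPM.

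MVD, the mevalonate diphosphate decarboxylase (chromosome 16, 88718343 to 88729569, hg19), changed most among the members at 6 h. WT libraries had 20.7 and 17.7 FPKM at 0 h, 34.1 and 31.6 FPKM at 6 h, and 42.8 and 42.9 FPKM at 24 h. The groups did not overlap, and MVD rose by a log2 fold change of 0.75 ± 0.08 (SE) by 6 h (limma, adjusted p = 0.000171). HMGCS1, the cytosolic HMG-CoA synthase at the entry to mevalonate (chromosome 5, 43287572 to 43313614), had 15.7 and 18.4 FPKM at 0 h and 24.8 and 25.2 FPKM at 6 h. Both 6 h libraries were above both 0 h libraries, with a log2 fold change of 0.53 ± 0.09 (SE, limma, adjusted p = 0.00195). FASN, the fatty acid synthase (chromosome 17, 80036214 to 80056170), was the single fatty acid enzyme that rose by 6 h, from 74.4 and 71.5 to 102.4 and 94.1 FPKM, a log2 fold change of 0.42 ± 0.06 (SE, limma, adjusted p = 0.000999). NSDHL (log2 fold change 0.36) and HSD17B7 (0.34), which act in the removal of the C-4 methyl groups of the sterol ring, and SQLE (0.21, adjusted p = 0.0489 by limma) also rose. Falling members came from both arms: ACSS2 (-0.41), the cytosolic acetyl-CoA synthetase, SCD (-0.39), IDI1 (-0.39), the isopentenyl diphosphate isomerase, the desaturase FADS1 (-0.24) and FDFT1 (-0.17), the squalene synthase. Without WT 6 h replicate 2 the number of members called was 9, against 14 with all 11 libraries.

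The regulators divided at 6 h. SREBF1 (chromosome 17, 17713713 to 17740316) had 42.6 and 37.1 FPKM in WT cells at 0 h, 25.1 and 23.4 FPKM at 6 h, and 26.1 and 25.4 FPKM at 24 h. It was high before stimulation and low at both later times, at 60.8% of its 0 h mean at 6 h (log2 fold change -0.69 ± 0.07, SE, limma, adjusted p = 0.000129). SREBF2 (chromosome 22, 42229109 to 42303310) had 38.6 and 36.1 FPKM at 0 h, 44.2 and 42.9 FPKM at 6 h, and 55.7 and 56.9 FPKM at 24 h. Its level was higher at each later time, without overlap. The early step was small (log2 fold change 0.22 ± 0.06, SE, limma, adjusted p = 0.0244) and was not called as TPM (0.10, adjusted p = 0.141 by limma) or without any 1 of WT 0 h replicate 2 and the WT 6 h libraries. INSIG1 (chromosome 7, 155089486 to 155101945), itself a known SREBP target, had 36.7 and 35.4 FPKM at 0 h, 29.5 and 28.1 FPKM at 6 h, and 64.8 and 62.8 FPKM at 24 h. It fell by 0.31 on the log2 scale by 6 h (SE 0.06, limma, adjusted p = 0.00394) and was above its starting level at 24 h. SCAP (chromosome 3, 47455171 to 47518616) stayed between 20.2 and 23.1 FPKM in all 6 WT libraries, and its groups overlapped (6 h: log2 fold change -0.00 ± 0.08, SE, limma, adjusted p = 0.994). SREBF1 and RAI1 overlap on opposite strands in the annotation, as do ACAT2, MVK, CYP51A1, ACACA, FADS1, FADS2 and ACSS2 with other coding genes. Whether reads were counted by strand is not given in the sources used here, so reads of such neighbours may be shared. The SREBF1 feature ran from 17584786 to 17740325, far beyond the gene. That of STARD4 ran from 110834021 to 111353003 on chromosome 5, where the gene ends at 110848288. The features of ACAT2, IDI1 and FDPS also reached past their genes. Reads from outside the gene may thus be part of these values, which was not tested.

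**Figure D1:**
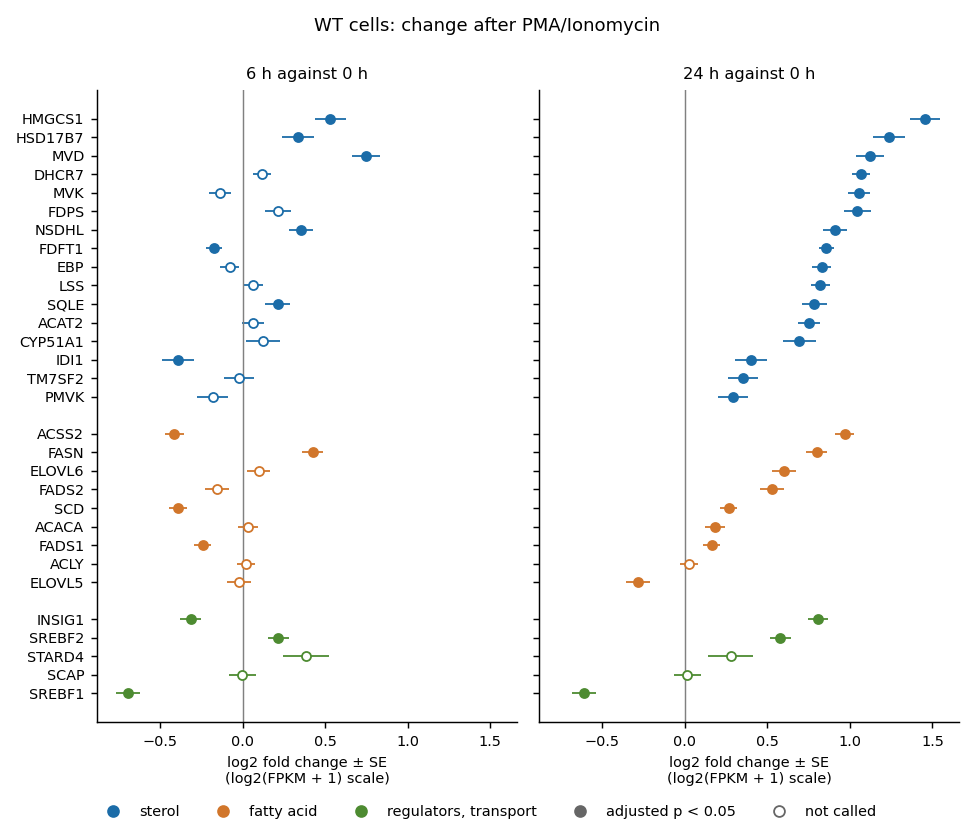
Log2 fold changes of the 30 members in WT cells at 6 h (left) and 24 h (right) against 0 h, on the log2(FPKM + 1) scale, with bars of 1 SE and filled points for an adjusted p under 0.05. At 6 h the points lie on both sides of 0, between -0.69 (SREBF1) and 0.75 (MVD), with the median of all features at -0.00 as FPKM and -0.12 as TPM, whereas at 24 h all 16 sterol enzymes lie between 0.29 and 1.46.

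At 24 h the picture was different. Compared with 0 h, 25 of the 30 members rose, 2 fell and 3 were not called in WT cells, when 26.5% of all features were higher and 28.2% lower (54.6% called). Every one of the 16 sterol enzymes rose, with a median log2 fold change of 0.84 and a range from 0.29 (PMVK) to 1.46 (HMGCS1), beside a median of -0.02 over all features. In the fatty acid arm 7 of 9 rose, 1 fell and 1 was not called, with a median of 0.27. The sterol median exceeded the fatty acid median by 0.58, and the spread of this difference between libraries was not measured. The arms' median log2 levels were also subtracted within each library. That other quantity had an SD of 0.0872 between libraries of a group (pooled over 5 degrees of freedom). The counts were 25 and 2 as TPM too, with a sterol median of 0.85 and a fatty acid median of 0.26. Leaving out ACLY and ACSS2, which supply acetyl-CoA to both arms, 6 of 7 fatty acid enzymes rose and the median stayed at 0.27.

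Along the sterol route the change was present at each stage. At the start, ACAT2, the cytosolic thiolase, rose from 73.2 ± 1.27 to 123.9 ± 0.371 FPKM (SD, n = 2), and HMGCS1 from 17.0 ± 1.85 to 48.4 ± 3.73 FPKM (SD, n = 2). HMGCS1 had 45.8 and 51.1 FPKM in the WT 24 h libraries, 2.84 times its 0 h mean, and its log2 fold change of 1.46 ± 0.09 (SE) was the highest of the members (limma, adjusted p = 5.81e-06). Mevalonate kinase, MVK, rose with a log2 fold change of 1.05, phosphomevalonate kinase, PMVK, with 0.29 and MVD with 1.12. PMVK was thus the least changed enzyme of the arm, between larger changes on either side of it in the route. Among isoprenoid enzymes FDPS rose from 169 ± 13.98 to 349 ± 22.7 FPKM (SD, n = 2), the highest level of any member, and IDI1 from 48.6 ± 7.18 to 64.2 ± 1.99 FPKM (SD, n = 2). From squalene to lanosterol, FDFT1, SQLE and LSS, the lanosterol synthase, rose with log2 fold changes of 0.86, 0.78 and 0.82.

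After lanosterol, HSD17B7 (chromosome 1, 162760492 to 162782613), the 3-keto sterol reductase, and DHCR7 (chromosome 11, 71139239 to 71163914), which reduces 7-dehydrocholesterol to cholesterol, changed most. HSD17B7 had 8.62 and 9.19 FPKM at 0 h, 11.5 and 11.5 FPKM at 6 h, and 22.0 and 22.6 FPKM at 24 h in WT cells. Its 24 h libraries were 2.50 times the 0 h mean (log2 fold change 1.23 ± 0.10, SE, limma, adjusted p = 1.95e-05). DHCR7 had 31.8 and 29.8 FPKM at 0 h, 33.4 and 33.6 FPKM at 6 h, and 65.8 and 65.6 FPKM at 24 h. It was not called at 6 h (log2 fold change 0.12, adjusted p = 0.123 by limma) and had a log2 fold change of 1.07 ± 0.06 (SE) at 24 h (limma, adjusted p = 2.15e-06). CYP51A1, the lanosterol demethylase, NSDHL and EBP, the sterol isomerase, rose with 0.70, 0.91 and 0.83. TM7SF2, a sterol reductase, rose with 0.35, but the table gives it 1 feature together with its neighbour VPS51, so the reads of these genes were not separated.

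The fatty acid arm was less uniform at 24 h. ACSS2 rose from 16.9 ± 0.494 to 34.1 ± 1.44 FPKM (SD, n = 2), with a log2 fold change of 0.97, and FASN from 72.9 ± 2.04 to 127.7 ± 2.02 FPKM (SD, n = 2), with 0.80. The elongase ELOVL6 (0.60) and the desaturase FADS2 (0.53) also rose. Smaller rises were seen for SCD (0.27), ACACA (0.19) and FADS1 (0.16). ACLY, the ATP citrate lyase, had 101.5 ± 4.92 and 103.4 ± 0.206 FPKM (SD, n = 2), a log2 fold change of 0.03 ± 0.05 (SE, limma, adjusted p = 0.700), and its groups overlapped. ELOVL5, an elongase of polyunsaturated fatty acids, fell from 36.9 ± 1.71 to 30.1 ± 1.41 FPKM (SD, n = 2), by 0.28 on the log2 scale. Among regulators INSIG1 rose with 0.81 ± 0.06 (SE, limma, adjusted p = 1.84e-05) and SREBF2 with 0.58 ± 0.06 (SE, limma, adjusted p = 0.00013), and SREBF1 stayed low with -0.61 ± 0.07 (SE, limma, adjusted p = 0.000191). SCAP (0.02, adjusted p = 0.889 by limma) and STARD4 (0.28, adjusted p = 0.120 by limma) were not called.

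Between 6 h and 24 h in WT cells 24 members rose and 1 fell, with 46.8% of all features called (20.5% higher and 26.3% lower). The sterol arm rose in full (16 of 16, median log2 fold change 0.77), and 6 of 9 fatty acid enzymes rose (median 0.40). As TPM 27 members rose and none fell, and the share of higher calls among all calls was 64.3% against 43.7% as FPKM. The WT time course thus fell into a few shapes. HMGCS1, MVD, HSD17B7, NSDHL, SQLE, FASN and SREBF2 rose at both steps. ACSS2, SCD, FADS1, IDI1, FDFT1 and INSIG1 fell by 6 h and rose from 6 h to 24 h. Another 11 members, 9 of them sterol enzymes, were not called at 6 h and rose later. SREBF1 fell and was not called afterwards, ELOVL5 fell late, and ACACA, ACLY, SCAP and STARD4 were called at neither step.

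ΔCRE cells showed the same late direction. From 6 h to 24 h 23 members rose, 1 fell and 6 were not called, with 49.6% of all features called (22.1% higher and 27.5% lower). All 16 sterol enzymes rose (median log2 fold change 0.66) and 5 of 9 fatty acid enzymes rose (median 0.29). ACSS2 had 12.01 and 12.75 FPKM at 6 h and 37.1 and 35.3 FPKM at 24 h, the largest change of the members (log2 fold change 1.47 ± 0.06, SE, limma, adjusted p = 9.59e-07). INSIG1 had 35.9 and 40.1 FPKM at 6 h and 73.1 and 73.4 FPKM at 24 h (0.93 ± 0.06, SE, limma, adjusted p = 1.36e-05). ELOVL5 fell, by 0.28. FASN had 120.5 and 109.9 FPKM at 6 h and 121.1 and 116.3 FPKM at 24 h, and its groups overlapped (log2 fold change 0.04, adjusted p = 0.598 by limma). As TPM, 24 members rose and none fell, and 60.7% of all calls were higher against 44.6% as FPKM.

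Whether this late change differed between genotypes was tested as an interaction. No member passed in limma (0.16% of all features did), and 3 members had an unadjusted p under 0.05, EBP, FASN and DHCR7, each with the smaller rise in ΔCRE cells. The share of all features with an unadjusted p under 0.05 was not counted, so these 3 cannot be set against a background. The interaction terms of the members lay between -0.33 and 0.11 on the log2 scale, with a median of -0.10. Above 0 were 5 of the 30 terms (3 of 16 sterol enzymes, 2 of 9 fatty acid enzymes and 0 of 5 regulators), against 5610 of 11256 features, whose median was -0.00. For FASN the term was -0.33 ± 0.09 (SE, limma, adjusted p = 0.429) and for EBP -0.33 ± 0.08 (SE, limma, adjusted p = 0.344). The response at 6 h against 0 h was also compared between genotypes, with ΔCRE 0 h replicate 2 alone, and no member passed or had an unadjusted p under 0.05 (0.267% of all features passed). With that library as the 0 h reference, 5 members rose and 5 fell by 6 h in ΔCRE cells (29.8% of all features called, 16.8% higher and 13.0% lower), and 21 rose and 1 fell by 24 h (41.5% called, 20.6% higher and 21.0% lower). As TPM 1 member rose and 11 fell by 6 h, and higher calls made up 31.8% of all calls against 56.4% as FPKM. Both comparisons share their 0 h library.

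**Figure D2:**
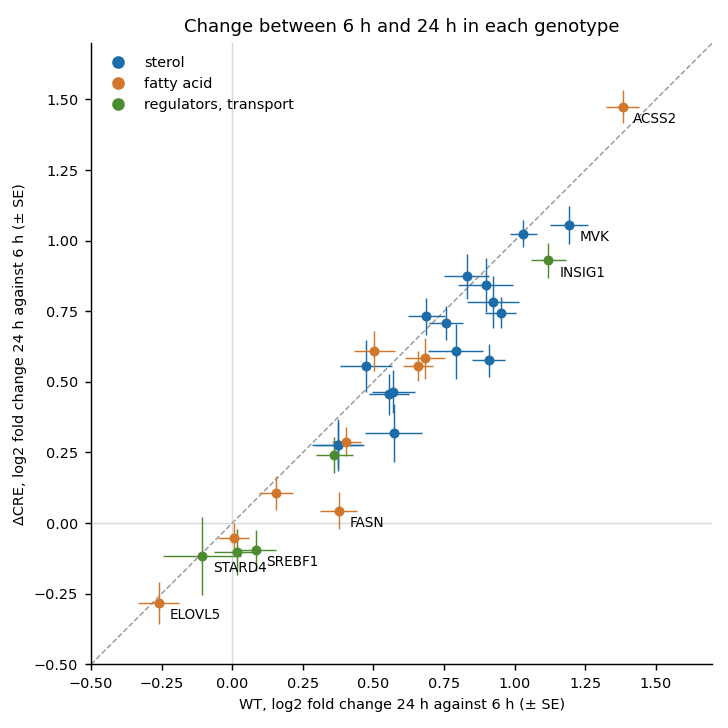
Log2 fold change from 6 h to 24 h of each member in WT cells (horizontal) and ΔCRE cells (vertical), with bars of 1 SE and a dashed line of equal change. Most points lie near the line. ACSS2 is highest in both (1.38 and 1.47), and FASN lies below it with 0.38 in WT and 0.04 in ΔCRE cells.

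At 6 h 9 of the 16 sterol enzymes were higher in ΔCRE than in WT cells and 7 were not called. Of the members 11 were called, all higher in ΔCRE cells, when 9.83% of all features were called, 3.62% higher and 6.22% lower. They were these 9 sterol enzymes, FADS1 of the fatty acid arm and INSIG1. The median log2 difference was 0.31 in the sterol arm, 0.08 in the fatty acid arm and 0.01 over all features. The medians of the arms hence differed by 0.23, and the spread of this difference between libraries was not measured. The median level of the sterol arm was 33.2 FPKM in WT and 39.3 FPKM in ΔCRE cells. In the fatty acid arm it was 48.4 and 57.9 FPKM, which in both genotypes was the level of FADS1 alone, the called enzyme of that arm. As TPM 13 members were called, all higher, and the medians were 0.31 and 0.08.

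CYP51A1 (chromosome 7, 91714301 to 91764117) had 51.3 and 50.6 FPKM in WT and 70.8 and 79.5 FPKM in ΔCRE cells at 6 h. Both ΔCRE libraries were above both WT libraries, with a log2 difference of 0.55 ± 0.10 (SE, limma, adjusted p = 0.0129). HMGCS1 had 24.8 and 25.2 FPKM in WT and 35.0 and 39.2 FPKM in ΔCRE cells, again without overlap (0.55 ± 0.09, SE, limma, adjusted p = 0.00831). IDI1 (chromosome 10, 1085092 to 1095059) had 37.05 and 36.3 FPKM in WT and 49.8 and 56.8 FPKM in ΔCRE cells (0.52 ± 0.10, SE, limma, adjusted p = 0.0131). For HSD17B7 the values were 11.5 and 11.5 FPKM in WT and 16.5 and 15.1 FPKM in ΔCRE cells (0.43 ± 0.10, SE, limma, adjusted p = 0.0282). In each of these 4 genes the lower ΔCRE library lay above the higher WT library. NSDHL, EBP, MVD, DHCR7 and MVK were also called, with log2 differences from 0.30 (MVK) to 0.38 (NSDHL). Outside the sterol arm, INSIG1 had 29.5 and 28.1 FPKM in WT and 35.9 and 40.1 FPKM in ΔCRE cells (0.39 ± 0.06, SE, limma, adjusted p = 0.00729), and FADS1 differed by 0.25 (adjusted p = 0.0183 by limma). The 37 other features tested between 150 and 160 Mb of chromosome 7 had a median of 0.13 in the same comparison. INSIG1 lay above 94.6% of them.

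The other regulators were not called at 6 h. SREBF2 had 44.2 and 42.9 FPKM in WT and 52.9 and 47.9 FPKM in ΔCRE cells (log2 difference 0.20, adjusted p = 0.0885 by limma), SREBF1 had 25.1 and 23.4 against 23.7 and 23.0 FPKM (-0.05, adjusted p = 0.725 by limma), and SCAP had 23.1 and 20.2 against 21.8 and 20.1 FPKM (-0.04, adjusted p = 0.805 by limma). As TPM the SREBF2 difference passed (0.20, adjusted p = 0.0451 by limma) and that of HSD17B7 did not (adjusted p = 0.0578 by limma). FDFT1, LSS, PMVK and TM7SF2 were the sterol enzymes whose genotypes overlapped at 6 h, with log2 differences between -0.01 and 0.00. In the same comparison the 23 other features tested between 10 and 20 Mb of chromosome 8, around FDFT1, had a median of -0.13. FDFT1 lay above 69.6% of them. Around LSS, PMVK and TM7SF2 the medians of the like segments were 0.04, 0.01 and 0.00. In the fatty acid arm ACSS2, ACLY, FADS2 and ELOVL6 overlapped between genotypes as well.

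These calls at 6 h were sensitive to the libraries used. Leaving out WT 6 h replicate 1 left 2 members called, leaving out WT 6 h replicate 2 left 1, and leaving out ΔCRE 6 h replicate 1 or 2 left 5 or 4. With the 4 libraries of 6 h alone in the fit 3 members were called, and with all 12 libraries none was called, although the log2 differences themselves kept their values. Relative depth, read from the steps between the lowest FPKM values, was 0.730 and 0.820 in the ΔCRE 6 h libraries and 1.04 and 1.06 in the WT 6 h libraries (WT 0 h replicate 1 = 1), and its part in the result was not tested.

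At 24 h fewer differences passed. HMGCS1 was higher and SCD lower in ΔCRE cells, and 28 members were not called, with 6.33% of all features called (2.35% higher and 3.97% lower). HMGCS1 had 45.8 and 51.1 FPKM in WT and 61.7 and 67.2 FPKM in ΔCRE cells, without overlap (log2 difference 0.41 ± 0.09, SE, limma, adjusted p = 0.0376). SCD (chromosome 10, 102106990 to 102124583) had 162.1 and 170.6 FPKM in WT and 140.9 and 145.1 FPKM in ΔCRE cells, 85.9% of the WT mean (-0.22 ± 0.05, SE, limma, adjusted p = 0.0497). The 58 other features tested between 100 and 110 Mb of chromosome 10 had a median of -0.30 in the same comparison, and SCD lay above 75.9% of them. Neither call held as TPM (adjusted p = 0.110 and 0.0607 by limma), where 3 other members were called, or with any 1 of the 4 libraries of 24 h left out. No member at all was called without WT 24 h replicate 1, WT 24 h replicate 2 or ΔCRE 24 h replicate 2, and 1 was called without ΔCRE 24 h replicate 1. The median log2 difference was 0.20 in the sterol arm and 0.03 in the fatty acid arm. Higher calls made up 37.2% of all calls as FPKM and 24.7% as TPM.

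The regulators at 24 h were not called. INSIG1 had 64.8 and 62.8 FPKM in WT and 73.1 and 73.4 FPKM in ΔCRE cells (log2 difference 0.20, adjusted p = 0.110 by limma), and SREBF2 had 55.7 and 56.9 against 61.3 and 58.1 FPKM (0.08, adjusted p = 0.508 by limma). SREBF1 had 26.1 and 25.4 against 22.2 and 21.4 FPKM, lower in both ΔCRE libraries (-0.23 ± 0.07, SE, limma, adjusted p = 0.110, and 0.0434 as TPM), where the 52 other features tested between 10 and 20 Mb of chromosome 17 had a median of -0.22. SCAP had 21.8 and 22.0 against 20.0 and 18.9 FPKM (-0.16, adjusted p = 0.309 by limma).

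At 0 h the comparison rested on ΔCRE replicate 2. Only DHCR7 was called, with 31.8 and 29.8 FPKM in WT and 40.7 FPKM in that library (log2 difference 0.39 ± 0.07, SE, limma, adjusted p = 0.0326), when 1.69% of all features were called and 0.657% were higher, and the DHCR7 call was lost without WT 0 h replicate 1, without WT 0 h replicate 2 and with the 0 h libraries alone in the fit. The median log2 difference was 0.31 in the sterol arm and 0.13 in the fatty acid arm (0.02 without ACLY and ACSS2).

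Read by library, the order of the genotypes was similar across time in the sterol arm. Both ΔCRE libraries lay above both WT libraries at 6 h and again at 24 h for 17 of 30 members (56.7%), against 14.6% of all features. By arm these were 11 of 16 sterol enzymes (68.8%), 3 of 9 fatty acid enzymes (33.3%) and 3 of 5 regulators (60%). With ΔCRE 0 h replicate 2 above both WT 0 h libraries as a further condition, the counts were 16 members (53.3%), the same 11 sterol enzymes, 2 fatty acid enzymes and 3 regulators, against 8.86% of all features. The 11 were ACAT2, HMGCS1, MVK, MVD, IDI1, FDPS, SQLE, CYP51A1, NSDHL, HSD17B7 and DHCR7. PMVK, FDFT1, LSS, TM7SF2 and EBP were the other sterol enzymes, and of the fatty acid arm ACACA and FADS1 kept this order at all 3 times.

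Another 39 genes of sterol and fatty acid metabolism were read beside the members, and all were found and tested. In WT cells 8 rose and 12 fell at 6 h, 14 rose and 8 fell at 24 h, and from 6 h to 24 h 18 rose and 7 fell. Over all features the shares called in these comparisons were 44.4%, 54.6% and 46.8%, so the counts called at 6 h and at 24 h against 0 h were near the background. Among further sterol enzymes MSMO1 (the C-4 methyl sterol oxidase), SC5D and ERG28 rose by 24 h and LBR, a sterol reductase of the nuclear membrane, fell. The largest changes at 6 h were those of FADS3 (log2 fold change 1.34), a relative of the desaturases FADS1 and FADS2, the sterol-sensing nuclear receptor NR1H3 (-0.99) and the cholesterol exporter ABCA1 (-0.99). FADS3 had 11.7 and 10.01 FPKM at 0 h and 29.96 and 27.9 FPKM at 6 h in WT cells. At 24 h they were FADS3 (1.62), ABCA1 (-1.502) and LPIN1 (1.35), a phosphatidate phosphatase. ABCA1 had 3.71 and 3.66 FPKM at 0 h and 0.622 and 0.691 FPKM at 24 h in WT cells.

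From 6 h to 24 h the largest changes of these other genes in WT cells were MSMO1 (1.32), LPIN1 (1.06) and ERG28 (1.02), a scaffold of sterol demethylation listed as C14orf1, and in ΔCRE cells they were LPIN1 (1.36), MSMO1 (1.12) and GGPS1 (1.06), the geranylgeranyl diphosphate synthase. In ΔCRE cells 17 rose and 6 fell over this step, when 22.1% of all features were higher and 27.5% lower. Against 0 h in ΔCRE cells (replicate 2), FADS3 (1.20), NR1H3 (-1.19) and ABCA1 (-0.79) changed most by 6 h, where 6 rose and 9 fell (29.8% of all features called), and FADS3 (1.52), LPIN1 (1.45) and ABCA1 (-1.39) by 24 h, where 14 rose and 7 fell (41.5% of all features called). Between genotypes, the elongase ELOVL7 was higher in ΔCRE cells at 6 h (0.52) and at 24 h (0.50), with 3.19 and 3.13 FPKM in WT and 5.15 and 4.80 FPKM in ΔCRE cells at 6 h. The cholesterol exporter ABCG1 (-0.61) and LPIN1 (-0.45) were lower in ΔCRE cells at 6 h, where LBR was higher (0.32). At 24 h GGPS1 (0.40) was higher as well. Of the 39 genes, 2 were higher and 2 lower in ΔCRE cells at 6 h, when 9.83% of all features were called. At 24 h 3 were higher and 0 lower, when 6.33% were called, so both counts were near the background. At 0 h, where ΔCRE was replicate 2 alone, the median log2 difference of the 39 genes was 0.06, beside 0.01 over all features.

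ΔCRE 0 h replicate 1 held the members at other levels. As FPKM 5 of 30 were above the range of the other 11 libraries, 12 below it and 13 within it, and as TPM the counts were 2, 23 and 5. As FPKM, 5 sterol enzymes were above the range and 3 below, whereas no fatty acid enzyme was above and 7 of 9 were below, with a median ratio to replicate 2 of 1.41 in the sterol arm and 0.491 in the fatty acid arm. As TPM the sterol direction turned, with 2 enzymes above the range, 10 below and a median ratio of 0.573, while 8 of 9 fatty acid enzymes were below and their ratio was 0.199. EBP had 146.9 FPKM and PMVK 71.4 FPKM, against at most 50.9 and 25.9 FPKM elsewhere. At the other end FASN had 27.2 FPKM and SREBF2 14.1 FPKM, against at least 71.5 and 36.1 FPKM elsewhere, and STARD4 had 3.26 FPKM. SCAP had 21.9 FPKM in it and 22.1 FPKM in replicate 2. The gut epithelium markers were high in this library, all 11 of them at 1 FPKM or more, and their part in these levels was not tested.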

How the data were processed

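Poly(A) RNA of 12 libraries was sequenced on an Illumina NextSeq instrument after TruSeq stranded library preparation. The authors aligned reads to hg19 and estimated FPKM per gene with TopHat 2.0.12 and Cufflinks 2.2.1, as named in the submitters' processing notes, and 1 table of 24331 features was deposited. 405 features name several symbols. Read counts were not used here, absolute depth is not known, and FPKM cannot show how precise a low value is. Groups were taken from the labels. The columns of ΔCRE 6 h and 0 h replicate 2 have a digit in place of the H of the hour and were matched to the 1 title left for each. The members and lists were chosen with earlier results of these data known.

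FPKM were tested as log2(FPKM + 1) with limma 3.58.1 (R 4.3.3, moderated test with a mean-variance trend, two-sided) on 6 groups in 1 model, over 11256 features with a mean of at least 1 FPKM and without ΔCRE 0 h replicate 1, with Benjamini-Hochberg adjustment. Fold changes on this scale understate those of low genes. The script was tested on simulated data. Values by library were given for SREBF1, SREBF2, SCAP, INSIG1 and the 4 members changing most in each of 4 comparisons (WT 6 h and 24 h against 0 h, ΔCRE against WT at 6 h and 24 h), and for members in the contrast of the arms. Of the other genes of the pathway the 3 with the largest called change per comparison were named. A gene among these is not reported here by name. Alternatives were another pseudocount, other filters, quantile normalization, TPM, all 12 libraries, only the groups compared, a replicate block, no trend, summed features and leaving out each library. Promoter windows came from RefSeq (GRCh38.p14) and gene positions from an annotation of GRCh37 (hg19). Tables and plots were made with Python 3.11.15, pandas 2.3.3, numpy 2.4.6 and matplotlib 3.10.9.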

Additional observations from a re-analysis of the deposited data

Results flagged for a closer look

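In ΔCRE 0 h replicate 1, which entered no comparison, PMVK had 71.4 FPKM and EBP had 147 FPKM, both above every one of the other 11 libraries as FPKM and as TPM. That library also held the gut epithelium markers at a sum of 10930 FPKM and ribosomal protein genes at 38.7% of all FPKM, against 22.0% to 24.3% in the other libraries, and the part of either in these levels was not tested.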

How the results depend on the processing

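The WT comparisons with 24 h and the ΔCRE comparison of 24 h with 6 h kept a similar number of members called (within 1.5 times) under each alternative other than all 12 libraries, and over the libraries left out the members called were 22 to 25 for WT 24 h against 0 h, 23 to 25 for WT 24 h against 6 h and 20 to 22 for ΔCRE 24 h against 6 h. With all 12 libraries the counts dropped in every comparison. Features and members called were then 857 and 1 for WT 6 h against 0 h, 1221 and 12 for WT 24 h against 0 h, 582 and 10 for WT 24 h against 6 h, 845 and 9 for ΔCRE 24 h against 6 h, 1011 and 2 for ΔCRE 6 h against 0 h, 1302 and 10 for ΔCRE 24 h against 0 h, 20 and 0 for ΔCRE against WT at 6 h, 17 and 0 at 24 h, and 17 and 0 at 0 h, and the interactions had 0 features (24 h against 6 h) and 4 features (6 h against 0 h). The sterol median minus the fatty acid median was then 0.946 for ΔCRE against WT at 0 h, -0.478 for ΔCRE 6 h against 0 h and -0.0606 for ΔCRE 24 h against 0 h. With the 11 libraries and without ACLY and ACSS2, that difference was 0.291 for ΔCRE against WT at 0 h and -0.0173 for ΔCRE 6 h against 0 h. With all 12 libraries, the fatty acid medians of these 2 comparisons were -0.381 and 0.402 both with and without ACLY and ACSS2. With the compared groups alone, features and members called were 364 and 3 for ΔCRE against WT at 6 h, 132 and 0 at 24 h, 43 and 0 at 0 h, and 1320 and 4 for ΔCRE 6 h against 0 h, and 9 features passed the interaction of 24 h against 6 h. For ΔCRE against WT at 24 h, 1 member was called with a pseudocount of 0.1, with no filter, with a mean of at least 5 FPKM and without the trend. For ΔCRE against WT at 0 h, 2 members were called with a pseudocount of 0.1 or quantile normalization and 4 as TPM. The interaction of 24 h against 6 h had 11 features with quantile normalization and 8 without the trend, and that of 6 h against 0 h had 47 with no filter.

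Same-numbered libraries correlated in their deviations at an r of -0.068 to 0.202 over 10 pairs of groups, so the replicate numbers were not taken to pair the samples. With the replicate block, features called were 1805 for ΔCRE against WT at 6 h, 1407 at 24 h (10 members) and 655 at 0 h (8 members), 16 members were called for ΔCRE 6 h against 0 h, and 72 features passed the interaction of 6 h against 0 h.

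With 1 library left out at a time, ΔCRE against WT had 325 to 674 features and 1 to 5 members called at 6 h, 165 to 283 features and 0 to 1 members at 24 h, and 106 to 113 features and 0 to 1 members at 0 h. WT 6 h against 0 h had 9 to 12 members, the lowest without WT 6 h replicate 2, and the interaction of 24 h against 6 h had 3 to 21 features. Leaving out ΔCRE 0 h replicate 2 gave no value, since no library remained. Among the genes followed singly, SCAP changed sign, always without a call. For WT 6 h against 0 h it was 0.0794 without WT 0 h replicate 1 and 0.0902 without WT 6 h replicate 2 (range -0.0930 to 0.0902), for WT 24 h against 0 h -0.0651 without WT 0 h replicate 2 (range to 0.0964), and for ΔCRE against WT at 6 h 0.0490 without WT 6 h replicate 1 and 0.0142 without ΔCRE 6 h replicate 2 (range from -0.134). For the genes followed singly, 342 values kept their direction and side of the threshold, 55 lost the call and 4 gained it. Fewer libraries entered these fits, and the cause of other changes was not tested.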
